A study of Homo sapiens with 6 samples.

Results

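The miR-181 family was followed through both arms of its hairpins in A549 cells, with and without transfected SMARCA4. The members were chosen by name: every row of the deposited table that starts with hsa-miR-181a, hsa-miR-181b, hsa-miR-181c or hsa-miR-181d, on either arm, which gave 9 of the 787 mature miRNAs listed. The family itself was selected on group differences already known from this same comparison, so its differences between the groups are given as a description, with no test. A549 is an established line of lung adenocarcinoma cells. It is known to carry inactivating changes of SMARCA4 (also BRG1), an ATPase subunit of the SWI/SNF chromatin remodelling complex. The control group, called empty vector here, received the plasmid pcDNA4, the other group received pcDNA4-SMARCA4, and RNA was taken from both 48 h after transfection. Each group held 3 libraries, described by the submitters as independent biological replicates. The plasmids were delivered with a lipid reagent and the labels mention no selection of transfected cells, so a library averages over cells with and without plasmid, and more miRNA per cell cannot be told apart from more cells that hold it.

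A miRNA hairpin is cut by Drosha and then by Dicer into a short duplex with a 5p and a 3p strand. Argonaute keeps one strand as the guide, and the other is usually degraded, so the kept arm is far more abundant. A guide finds its targets mainly through its seed, bases 2 to 8 counted from the 5′ end. The 5p arms are the guides of the miR-181 family. They are known for tuning antigen receptor signalling in developing T cells, where they repress several phosphatases, and they have been tied to TGF-beta signalling in epithelial tumour cells.

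RefSeq (GRCh38.p14) lists 10 mature miR-181 sequences from 6 hairpins, and all 9 members were matched to one of them by name. miR-181d-3p is not analysed here. The sequences are shown because they say which members can act alike and which can be mistaken for each other in counting. Capitals mark the seed.
hsa-miR-181a-5p: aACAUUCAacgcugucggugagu
hsa-miR-181b-5p: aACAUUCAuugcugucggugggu
hsa-miR-181c-5p: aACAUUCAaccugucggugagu
hsa-miR-181d-5p: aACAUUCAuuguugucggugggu
hsa-miR-181a-3p: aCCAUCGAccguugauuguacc
hsa-miR-181a-2-3p: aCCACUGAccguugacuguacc
hsa-miR-181c-3p: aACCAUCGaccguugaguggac

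The 4 guide arms share one seed. Among all mature names of the RefSeq table, 5 carry it, and the fifth, miR-4262, is not in the deposited table. miR-181a-5p and miR-181c-5p differ by 1 edit, a base that miR-181c-5p lacks, and miR-181b-5p and miR-181d-5p differ by the single substitution C12U, counted from the 5′ end with the base of miR-181b-5p first. miR-181a-5p and miR-181b-5p differ by 3 substitutions (A9U, C10U and A21G). The sources used here do not say how reads that match near-identical miRNAs were assigned, so the split within each of the close pairs is uncertain. The 3p arms have seeds of their own: those of miR-181a-3p, miR-181a-2-3p and miR-181c-3p differ from one another, and miR-181b-3p and miR-181b-2-3p share one.

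The hairpins lie in 3 pairs. MIR181A1 (chr1:198859044-198859153) and MIR181B1 (chr1:198858873-198858982) sit 61 bases apart on the minus strand, in an intron of the lincRNA gene MIR181A1HG in GENCODE 29. MIR181A2 (chr9:124692442-124692551) and MIR181B2 (chr9:124693710-124693798) sit 1158 bases apart on the plus strand, in an intron of the antisense RNA gene MIR181A2HG and, on the opposite strand, of NR6A1. MIR181C (chr19:13874699-13874808) and MIR181D (chr19:13874875-13875011) sit 66 bases apart on the plus strand, in an intron of NANOS3. The mature miR-181a-5p is the same from chromosomes 1 and 9, as is miR-181b-5p, so the guide arms of a and b cannot be assigned to a locus. Their 3p arms can: miR-181a-3p and miR-181b-3p come from chromosome 1, miR-181a-2-3p and miR-181b-2-3p from chromosome 9.

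Values are normalized read counts as the authors deposited them, in which 1 read was worth between 0.422 and 2.61. The reads recovered from them totalled 701885 to 1079944 in 5 libraries and 7274329 in SMARCA4 replicate 2, or 8.33 times the mean of the other 5, so the low members are counted far better there. That library also differed from the other SMARCA4 libraries in its miRNA profile (Pearson r of log2 values 0.937 and 0.939, where replicates 1 and 3 gave 0.966), and values without it are given where it bears most on a result. The labels could not be checked against the transfected gene, since only small RNA was read. Of 7 epithelial miRNAs, 6 were listed, and their summed level was 0.0200% to 0.0383% of an empty vector library and 0.0138% to 0.0344% of a SMARCA4 library, with miR-205-5p not among the listed names. Of the 6, 4 were higher, 2 were lower and 2 were called, miR-141-3p and miR-203a-3p, both higher, where 1.41% of all 637 fitted miRNAs were called (limma, adjusted p under 0.05). The 2 lower ones were miR-200b-3p, the most abundant of the 6 (log2 fold change −1.14, SE 0.35), and miR-200c-3p (−0.06, SE 0.78). miR-200b-3p was at 422 ± 123 with empty vector and 190 ± 51.8 with SMARCA4 (SD, n = 3 each).

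All 4 guide arms had higher means with SMARCA4, and the 4 3p arms with enough reads to be fitted had lower ones. Values of a group are given in the order of replicates 1, 2 and 3, the empty vector group first. Summed, the 4 guide arms stood at 17905, 40678 and 19881 normalized counts with empty vector, and at 56028, 114447 and 61655 with SMARCA4. Every SMARCA4 library was above every empty vector library, by 3.01-fold between geometric means (log2 difference 1.59, SE 0.49). The summed 3p arms went the other way, from 1222, 2233 and 1629 to 701, 1256 and 777 (log2 difference −0.90, SE 0.36). SMARCA4 replicate 2 overlapped empty vector replicate 1 there; without it the groups did not overlap and the log2 differences were 1.27 for the guide arms and −1.15 for the 3p arms.

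The family's share of all miRNA reads does not depend on the scaling between libraries. With empty vector it was 1.15%, 2.42% and 1.22%, and with SMARCA4 it was 3.09%, 3.76% and 3.44%. The groups did not overlap, at 1.60% ± 0.712 against 3.43% ± 0.337 (SD, n = 3 each). The Wilson 95% interval of a library's share reached at most 0.0408 percentage points to either side, which covers counting error only. The 3p arms made up 6.39%, 5.20% and 7.57% of the family's reads in the empty vector libraries and 1.24%, 1.09% and 1.24% in the SMARCA4 libraries, with intervals of at most 0.476 percentage points to either side. Of all miRNA reads they made up 0.0735%, 0.126% and 0.0922% with empty vector and 0.0382%, 0.0409% and 0.0428% with SMARCA4. These ranges did not overlap, whereas those of the summed 3p normalized counts did.

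**Figure D1:**
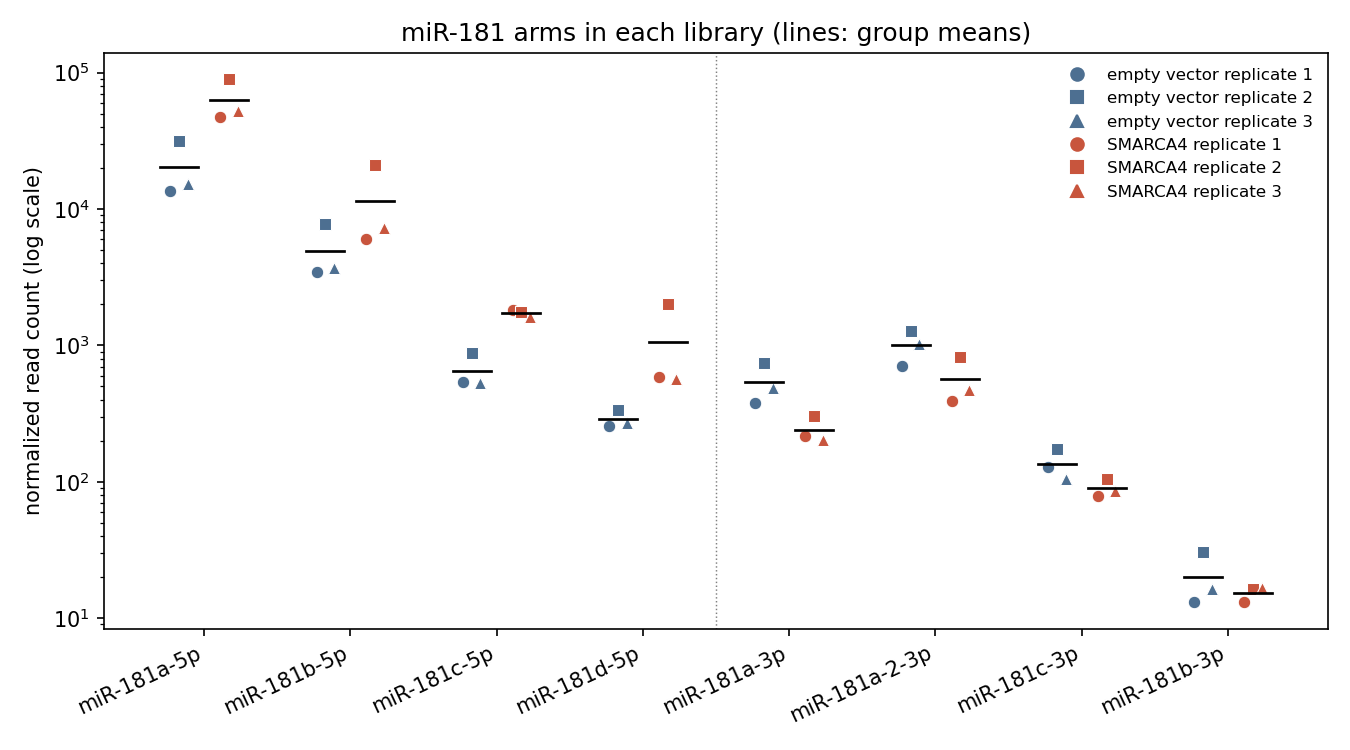
Normalized read counts (log axis) of the 8 miR-181 arms that reached a mean of 1, one point per library, with lines at the group means. The 4 guide arms (left of the dotted line) had higher means with SMARCA4 and the 4 arms to the right lower ones, with replicate 2 (squares) the highest in every empty vector group.

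miR-181a-5p, the most abundant member, was at 13657, 31751 and 15385 in the empty vector libraries and at 47629.7, 89581 and 52179.6 in the SMARCA4 libraries. The groups did not overlap, although empty vector replicate 2 stood well above the other empty vector libraries. The means were 20264 ± 9985 and 63130 ± 23020 (SD, n = 3 each), with a log2 fold change of 1.69 (SE 0.39), or 1.40 without SMARCA4 replicate 2. It was the 17th most abundant of the listed miRNAs in the empty vector group and the 9th in the SMARCA4 group.

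miR-181b-5p, whose hairpins lie beside those of miR-181a, was at 3456, 7716 and 3694 against 5998, 21090 and 7291. Empty vector replicate 2 lay above SMARCA4 replicates 1 and 3, so the groups overlapped. The log2 fold change was 1.08 (SE 0.50), and it was 0.52 without SMARCA4 replicate 2, or 1.34-fold against 2.31-fold in means.

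The guide arms of the chromosome 19 hairpins were less abundant. miR-181c-5p was at 535, 873 and 531 against 1817, 1763 and 1617, with means of 647 ± 196 and 1732 ± 103 (SD, n = 3 each) and a log2 fold change of 1.46 (SE 0.29). Its 3 SMARCA4 values lay close together, with replicate 2 between the others, and every one was above the empty vector range. miR-181d-5p was at 256, 339 and 271 against 583, 2014 and 567, again with no overlap (log2 fold change 1.60, SE 0.48). SMARCA4 replicate 2 was far above its fellows for miR-181d-5p, and without it the log2 fold change was 1.00, or 1.99-fold in means in place of 3.65-fold.

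The close pairs were compared with each other because reads could pass between them. miR-181c-5p stood at 3.92%, 2.75% and 3.45% of miR-181a-5p in the empty vector libraries and at 3.82%, 1.97% and 3.10% in the SMARCA4 libraries, with overlapping ranges. miR-181d-5p stood at 7.42%, 4.39% and 7.35% of miR-181b-5p against 9.72%, 9.55% and 7.77%, with no overlap. Whether misassigned reads of the abundant partner contributed to the values of miR-181c-5p or miR-181d-5p was not tested.

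Within the summed guide arms, miR-181a-5p took 76.3%, 78.1% and 77.4% in the empty vector libraries and 85.0%, 78.3% and 84.6% in the SMARCA4 libraries. SMARCA4 replicate 2 was close to the empty vector values and the other SMARCA4 libraries were higher. miR-181b-5p was at 19.3%, 18.97% and 18.6% against 10.7%, 18.4% and 11.8%, the reverse of that order. The shares of a and b thus differed from the empty vector values mainly in SMARCA4 replicates 1 and 3, whereas the highest levels of both were in replicate 2.

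Each 3p arm can be traced to one hairpin. miR-181a-3p, from chromosome 1, was at 379, 747 and 485.6 in the empty vector libraries and at 217, 305 and 203.1 in the SMARCA4 libraries. The groups did not overlap, with means of 537 ± 190 and 242 ± 55.5 (SD, n = 3 each), and the log2 fold change was −1.11 (SE 0.34). miR-181a-2-3p, from chromosome 9, was at 701, 1280 and 1020 against 392, 826 and 472 (log2 fold change −0.86, SE 0.37). SMARCA4 replicate 2 lay above empty vector replicate 1, and without it the groups did not overlap (log2 fold change −1.17).

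The ratio between the 3p arms of the 2 miR-181a loci overlapped between the groups. miR-181a-2-3p was 1.85, 1.71 and 2.10 times miR-181a-3p in the empty vector libraries and 1.81, 2.70 and 2.33 times in the SMARCA4 libraries. Ligation efficiency differs between miRNAs, so this ratio can be compared between libraries but does not give the true output of each locus. Nor need it follow the balance of the loci, which would require the 3p strand to be kept alike at both hairpins. That was not tested, and miR-181a-5p over each of these 3p arms differed between the groups, by 2.80 and 2.55 in log2.

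miR-181c-3p, from chromosome 19, was at 128, 175 and 105 against 78.4, 106 and 85.0, with an overlap of empty vector replicate 3 and SMARCA4 replicate 2 (log2 fold change −0.57, SE 0.34). Without SMARCA4 replicate 2 the groups did not overlap and the log2 fold change was −0.70. miR-181b-3p was at 13.2, 30.4 and 16.4 against 13.1, 16.5 and 16.5, from 5 to 16 reads in 5 libraries and 39 in SMARCA4 replicate 2. Its groups overlapped (log2 fold change −0.28, SE 0.48), and without empty vector replicate 2 the log2 fold change was 0.05. miR-181b-2-3p had 1 read in empty vector replicate 3 and 7 in SMARCA4 replicate 2 and was at 0 elsewhere, where a count of 0 allows 3 reads, or between 5.66 and 7.84 normalized counts. It did not reach the mean of 1 required for the fit, and no fold change is given.

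The arms of one hairpin were read from the same libraries, so their ratio is free of the scaling between libraries. miR-181a-5p had 12.6, 15.7 and 10.2 reads per read of its 3p arms (miR-181a-3p and miR-181a-2-3p summed) with empty vector. With SMARCA4 it had 78.2, 79.2 and 77.3. The 3 SMARCA4 libraries lay close together, although the level of miR-181a-5p and the depth were highest in replicate 2. The means were 12.8 ± 2.73 and 78.2 ± 0.967 (SD, n = 3 each). SMARCA4 replicates 1 and 3 had only 83 and 86 reads of miR-181a-3p and 150 and 200 of miR-181a-2-3p. Counting error at such numbers is larger than the SD of 0.967, so the closeness of these libraries does not measure precision.

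The chromosome 19 hairpin moved the same way. miR-181c-5p had 4.18, 4.99 and 5.08 reads per read of miR-181c-3p in the empty vector libraries and 23.2, 16.7 and 19.03 in the SMARCA4 libraries. For miR-181b-5p over miR-181b-3p the ratios were 262, 254 and 226 against 459, 1280 and 441, where few miR-181b-3p reads limit the precision. On the log2(value + 1) scale the ratio was higher with SMARCA4 by 2.80 (SE 0.17) for miR-181a-5p over miR-181a-3p. It was higher by 2.55 (SE 0.21) over miR-181a-2-3p, by 2.03 (SE 0.16) for the arms of miR-181c and by 1.36 (SE 0.51) for those of miR-181b. Without SMARCA4 replicate 2 these differences were 2.70, 2.58, 2.14 and 0.85. None of the 4 ratios overlapped between the groups. The arms of miR-181a and miR-181b that come from 2 loci share their guide, so these 4 pairs are not independent of each other.

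**Figure D2:**
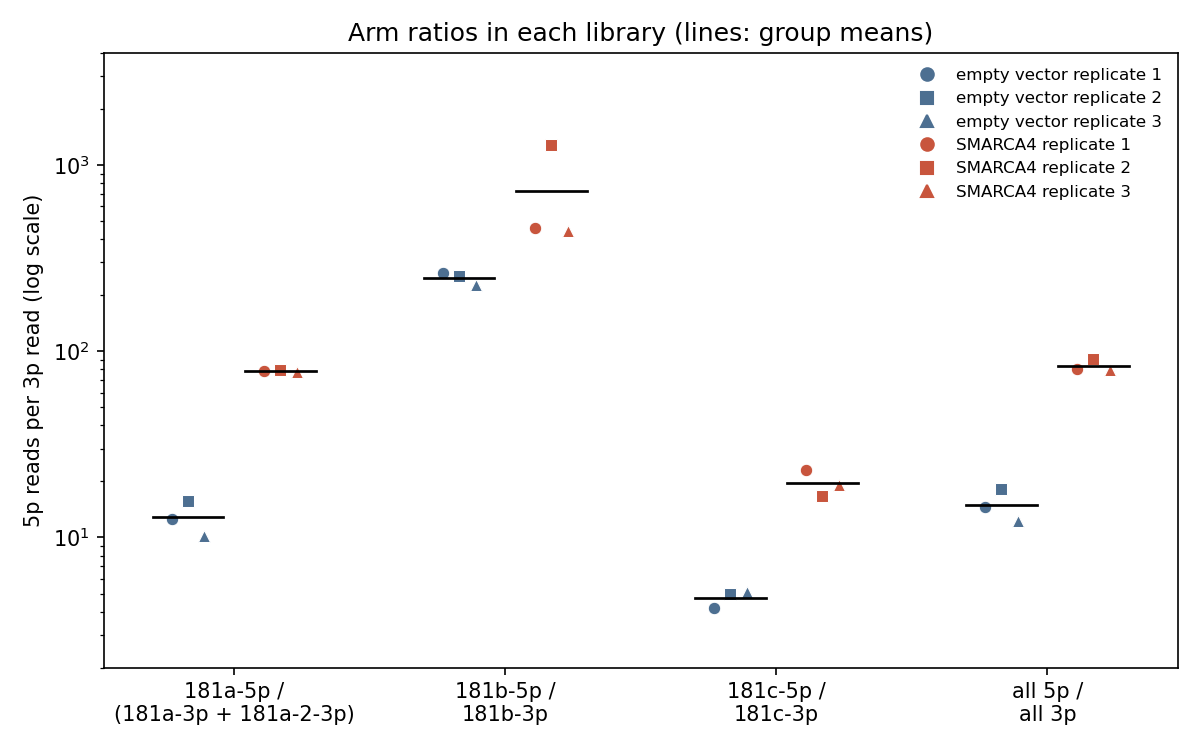
Reads of the 5p arm per read of the 3p arm (log axis) in each library, with lines at the group means; the last column sums all arms, including miR-181d-5p. For miR-181a the SMARCA4 libraries sit at 77.3 to 79.2 and the empty vector libraries at 10.2 to 15.7.

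The same ratio was computed for all other hairpins. Both arms could be fitted for 152 other pairs. In these the more abundant arm had a median log2 fold change of 0.06 and the less abundant arm one of −0.41, so scarcer arms were lower with SMARCA4 in the rest of the table too. Its part in the miR-181 differences was not tested. The ratio did not overlap between the groups in 27% of the other pairs, against 4 of 4 for miR-181. Among the 91 other pairs with both arms at a mean of at least 10, it was 36.3%. The more abundant arm was higher and the less abundant arm lower in 37.5% of the other pairs and in 40.7% of those 91. The 5p arm was higher and the 3p arm lower in 30.9% of the other pairs. Since the contrast is the one the family was chosen on, nothing is read from these shares.

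Among the 91 other pairs with both arms at a mean of at least 10, the gap between the more and the less abundant arm exceeded that of miR-181a-5p over miR-181a-3p in 3. These 3, named after their values were seen, were miR-191 (3.86), miR-193a (2.99) and miR-23a (2.86), all as log2 differences. In 6 the gap exceeded that of miR-181a-5p over miR-181a-2-3p, in 22 that of miR-181b, and in 9 that of miR-181c. The contrast is again the one the family was chosen on, and nothing is read from these ranks.

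**Figure D3:**
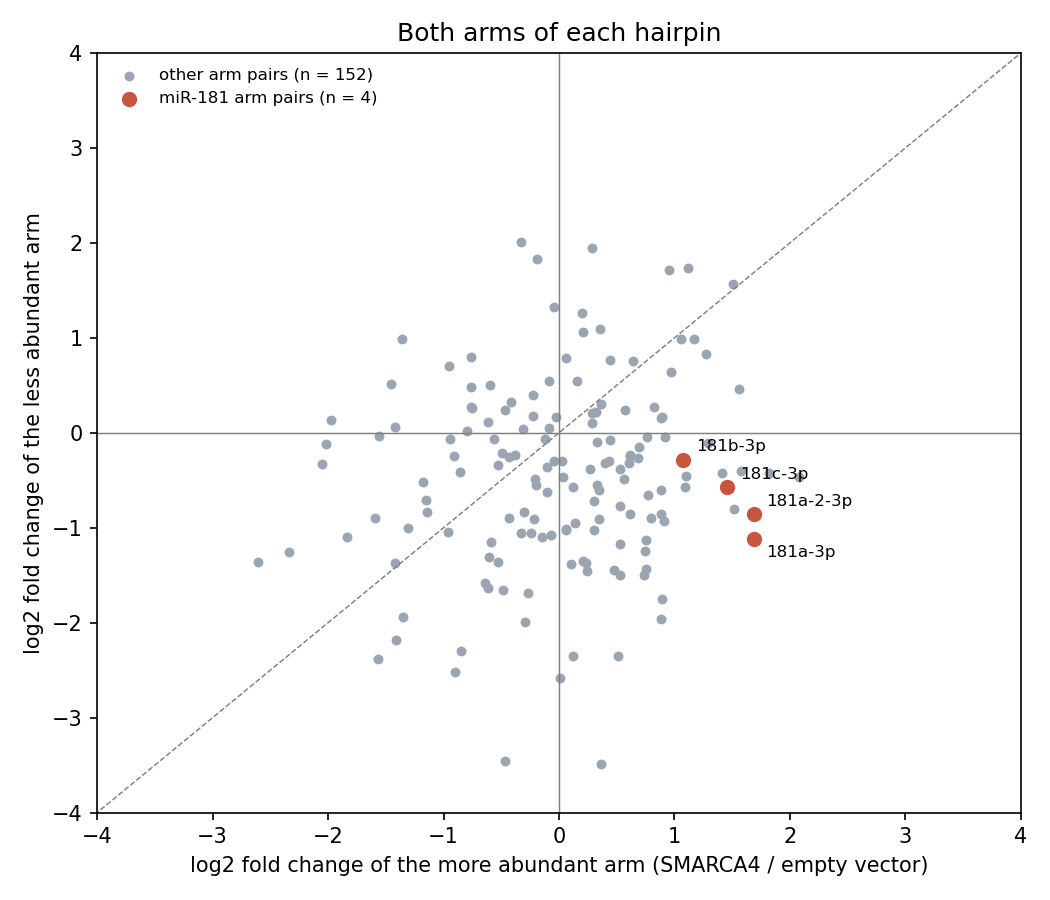
Log2 fold change (SMARCA4 over empty vector) of the more abundant arm (x axis) against that of the less abundant arm (y axis), one point per pair of arms; the dashed line marks equal change. The 4 miR-181 pairs lie at the lower right, where the more abundant arm is higher and the less abundant arm lower, together with 57 of the 152 other pairs.

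The order of levels within the family also differed. In the empty vector group it ran miR-181a-5p, miR-181b-5p, miR-181a-2-3p (1001 ± 290), miR-181c-5p, miR-181a-3p, miR-181d-5p (289 ± 43.7), miR-181c-3p (136 ± 35.8) and miR-181b-3p (20.0 ± 9.17; SD, n = 3 each). Neighbours in that order overlapped only between miR-181a-2-3p and miR-181c-5p and between miR-181c-5p and miR-181a-3p. In the SMARCA4 group miR-181c-5p and miR-181d-5p (1054 ± 831) came before miR-181a-2-3p (563 ± 231) and miR-181a-3p, and the other members kept their places, with miR-181c-3p at 89.7 ± 14.2 and miR-181b-3p at 15.4 ± 1.98 (SD, n = 3 each). There miR-181d-5p overlapped both of its neighbours. miR-181b-2-3p was last in both groups.

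In normalized counts, replicate 2 was the highest of its group for all 8 fitted members in the empty vector group and for 6 of 8 in the SMARCA4 group. The deposited values of SMARCA4 replicate 2 summed to 3.07e+06, against 1.66e+06 to 1.84e+06 in the other libraries, so its normalized counts are not shares of a like total. miR-181c-5p and miR-181b-3p were the exceptions.

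In the fit across the whole table (limma on log2(value + 1), 637 miRNAs, adjusted p under 0.05), 1.41% of the miRNAs were called. The calls were 6 higher and 3 lower, or 4 higher and 8 lower with libraries rescaled to the same total, which moved the median of all fitted miRNAs by −0.26. Of the 8 fitted members 1 was called, miR-181c-5p. By limma 0 members were called under that rescaling, under quantile normalization, without the trend, or without empty vector replicate 1 or 3 or SMARCA4 replicate 1 or 3. Without SMARCA4 replicate 2, 6.44% were called and 5 of the 8 members, miR-181a-5p, miR-181c-5p and miR-181d-5p as higher and miR-181a-3p and miR-181a-2-3p as lower. With all 6 libraries the groups did not overlap for 31.1% of the fitted miRNAs and for 4 of the 8 members (miR-181a-5p, miR-181c-5p, miR-181d-5p and miR-181a-3p). The median log2 fold change was 1.53 for the 4 guide arms and −0.72 for the 4 fitted 3p arms, where it was 0.01 for the 241 fitted miRNAs with a name ending in 5p, −0.16 for the 260 with one ending in 3p and −0.05 for all 637. These counts use the contrast on which the family was picked, and nothing is read from them.

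**Figure D4:**
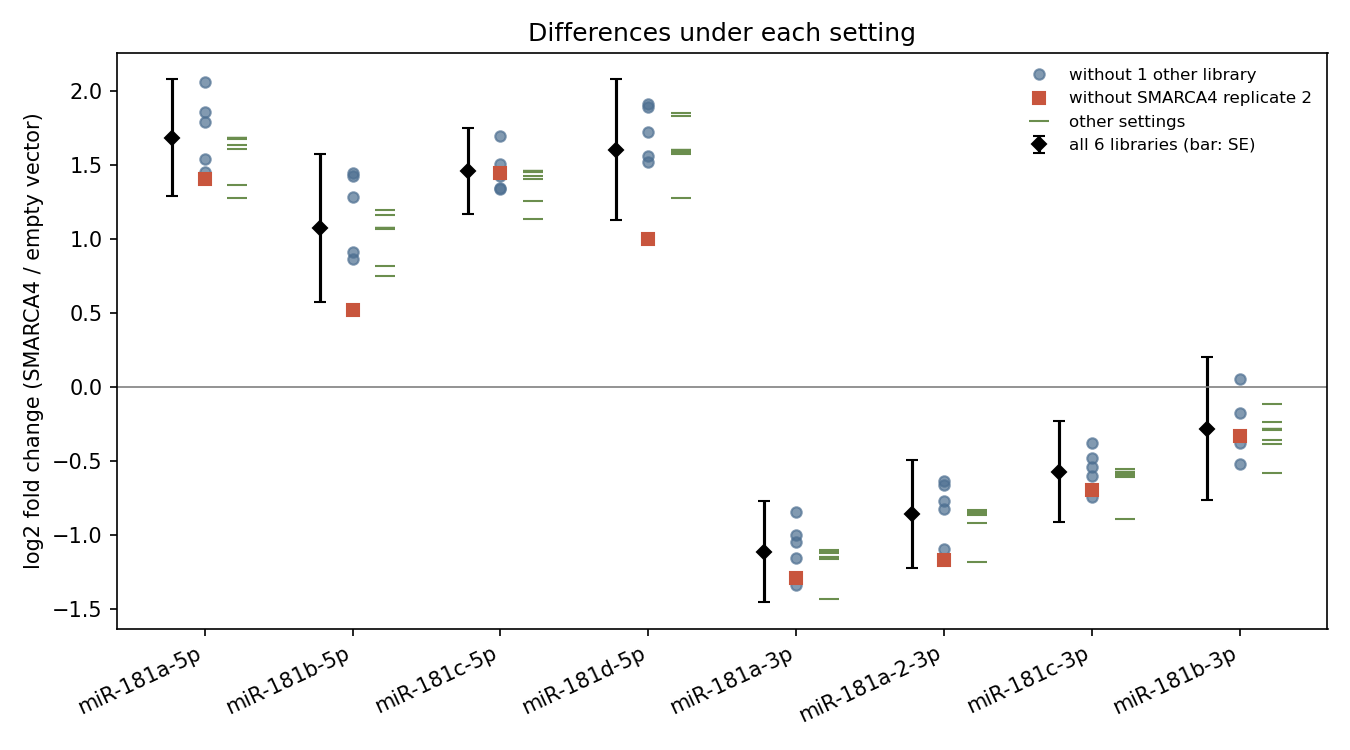
Log2 fold change (SMARCA4 over empty vector) of the 8 fitted members with all 6 libraries (diamonds, bars are SE), with 1 library left out (circles and, for SMARCA4 replicate 2, squares) and under the other settings (dashes). Guide arms stay above 0 throughout; of the 3p arms, only miR-181b-3p crosses 0, in 1 setting.

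miRNAs with a like pattern were sought among 413 non-members with a mean of at least 10, by Pearson r of log2(value + 1) over the 6 libraries, the 3 highest for each guide arm. The points share libraries and scaling, and the values are a description. For miR-181a-5p they were miR-1247-3p (r = 0.978), miR-106b-3p (0.966) and miR-449c-5p (0.959). For miR-181b-5p they were miR-3615 (0.986), miR-99b-3p (0.979) and miR-125b-2-3p (0.977), and for miR-181d-5p miR-25-3p (0.985), miR-3195 (0.979) and miR-221-3p (0.977). In these 3 guide arms and all of the miRNAs named for them, SMARCA4 replicate 2 was the highest of the 6 libraries. Without it r was 0.965, 0.988 and 0.951 for those of miR-181a-5p, 0.945, 0.936 and 0.996 for those of miR-181b-5p, and 0.927, 0.968 and 0.917 for those of miR-181d-5p, in the same order. For miR-181c-5p the 3 were let-7b-5p (0.987), miR-6840-5p (0.976) and miR-34c-3p (0.974), with r of 0.986, 0.970 and 0.974 without that library. Few reads limit the r of 2 of the named miRNAs. With empty vector, miR-34c-3p was at 3.77, 7.61 and 3.27 normalized counts and miR-449c-5p at 9.43, 15.2 and 6.54. In those libraries 3 reads are worth 5.66, 5.71 and 4.91. let-7b-5p, of a family that represses growth genes, was at 2785, 3246 and 2879 in the empty vector libraries and at 4899.98, 5084 and 4878 in the SMARCA4 libraries, with replicate 2 as close to its fellows as for miR-181c-5p.

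The miR-23a, miR-27a and miR-24-2 hairpins lie on the same chromosome as MIR181C, with 38039 bases between MIR23A and MIR181C. Of 6 arms of that cluster, all fitted, 4 were higher and 2 lower with SMARCA4 and 0 were called, with a median log2 fold change of 0.34. Its most abundant arms were miR-27a-3p, at 7007 ± 1580 against 9012 ± 1925, and miR-24-3p, at 1731 ± 793 against 3001 ± 779 (SD, n = 3 each). miR-24-3p also comes from a second locus. The lower ones were miR-23a-5p (log2 fold change −2.35, SE 0.93) and miR-24-2-5p (−0.61, SE 0.42), while the third scarce arm, miR-27a-5p, had a log2 fold change of 0.31 (SE 0.35).

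Of 9 miRNAs linked, like miR-181, to TGF-beta signalling or mesenchymal change, 8 were listed and 5 reached the mean for the fit. Of these 4 were higher, 1 was lower and 0 were called, with a median log2 fold change of 0.73. miR-21-5p, abundant in many tumours, was at 387595 ± 90924 against 323492 ± 124236, and miR-182-5p at 59621 ± 6726 against 92897 ± 22712 (SD, n = 3 each). miR-214-3p was at 0 in every library.

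miR-181 is abundant in lymphoid cells, so markers of blood cells were read as well. Of 8 such miRNAs, 3 were listed, and the erythroid miR-451a and the myeloid miR-223-3p were not among the names in the table. All 3 had a positive fitted log2 fold change and 0 were called; for miR-150-5p, near 1 normalized count, the fitted 0.13 (SE 0.87) and the means differ in sign. Their sum ranged from 5621 to 7213 normalized counts in the empty vector group and from 7962 to 14458 in the SMARCA4 group, nearly all of it miR-486-5p, at 6359 ± 813 against 10094 ± 3752 (SD, n = 3 each). The leukocyte miR-142-5p was at 21.3 ± 19.7 against 54.9 ± 30.3 and the lymphocyte miR-150-5p at 1.26 ± 2.177 against 1.07 ± 1.20 (SD, n = 3 each). Their part in the miR-181 values was not tested.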

How the data were processed

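Small RNA was sequenced from A549 cells 48 h after transfection. Per the labels' protocols, RNA came from a kit that retains small RNA and libraries from a TruSeq small RNA kit, whose adapter ligation favours some miRNAs. Per the submitters' processing notes, bcl2fastq 2.18.0.12 and build GRCh38 were used; the trimmer, aligner, counter and annotation are not named in them. The table the authors deposited, named for TMM, holds normalized signal values: each library's reads of a mature miRNA, multiplied by 1 factor. Whole reads were recovered for 100% of values (tolerance 1e-06). No molecular identifiers are mentioned, so intervals cover counting error only.

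limma 3.58.1 (R 4.3.3) was run on log2(value + 1) with the trend option and no covariate beside group, over the 637 of 787 miRNAs with a mean of at least 1; 150 were not fitted. Adjusted p-values follow Benjamini and Hochberg (threshold 0.05). Fold changes on this scale understate changes of scarce miRNAs. edgeR 4.0.16 and DESeq2 1.42.0 on the recovered reads (8 and 46 miRNAs called), pseudocounts of 0.5 and 5, other filters and scalings, and leaving out each library were alternatives. The fits were tested on simulated data. No replicates of a group agreed within sampling noise (lowest chi-square per degree of freedom 4.34). Arms were paired through RefSeq hairpins (GRCh38.p14), and introns come from GENCODE 29 on the same build. Named miRNAs are all members, for each guide arm the 3 most alike non-members with a mean of at least 10, and the 2 most abundant of each list; others were chosen after their values were seen. The members and lists were chosen with earlier results of these data known.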

Additional observations from a re-analysis of the deposited data

How the results depend on the processing

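Of 175 fold changes and arm ratios of the fitted members and the summed family, recomputed under the alternatives, 174 kept their sign. The exception was miR-181b-3p without empty vector replicate 2 (0.05). Part of this count was fixed in advance. The other filters, limma without the trend and the replicate block leave a member's fold change as it was, so its sign could not change there. Counts of calls moved more. The 9 miRNAs called by limma became 23 with no filter and 46 with DESeq2, which left 376 adjusted p-values undefined, and 0 to 41 when 1 library was left out. Leaving out replicate 1, 2 or 3 of the empty vector group gave 0 (103 at an unadjusted p under 0.05), 12 and 2 calls, and leaving out replicate 1, 2 or 3 of the SMARCA4 group gave 0 (119 at an unadjusted p under 0.05), 41 and 1. The 1 member called became 0 with libraries rescaled to the same total, quantile normalization, limma without the trend or edgeR, 4 with DESeq2, and 0 to 5 when 1 library was left out. With a replicate block 13 miRNAs and 2 members (miR-181a-5p and miR-181c-5p) were called. Deviations from the group means correlated at 0.07, 0.09 and 0.01 between the libraries numbered 1, 2 and 3. Those of SMARCA4 replicate 3 correlated more with empty vector replicate 1 (0.05) than with its own number. Whether same-numbered libraries belong together cannot be told from these values. Rescaling to the same total multiplies each library by 1 factor, and it lowered the log2 fold change of every fitted member. It gave 1.14 for miR-181c-5p and −0.89 for miR-181c-3p, in place of 1.46 and −0.57. Likewise miR-181a-5p went from 1.69 to 1.36 and miR-181a-3p from −1.11 to −1.44, where the median of all miRNAs moved by −0.26. Why the counts of calls moved was not tested. With 5 to 39 reads per library, depth limits miR-181b-3p and its arm ratio.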
